A study of Mus musculus with 12 samples.

Results

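The nuclear receptor genes examined here were the 43 genes of this superfamily in the count table, of 24470 genes in all, chosen by symbol without Nr2f1, Nr2f2, Nr2f6 and Nr5a1. Nuclear receptors are transcription factors that bind DNA through a zinc finger domain and, in most members, are switched by a small lipophilic ligand such as a steroid, a retinoid, thyroid hormone, vitamin D or an oxysterol. Steroid receptors bind DNA mainly as homodimers, whereas the receptors for retinoids, thyroid hormone, vitamin D, oxysterols and bile acids share the retinoid X receptors as partners, and orphan members act with no known or needed ligand. In the fetal testis members of this superfamily are known for steroid synthesis in Leydig cells, for the response to retinoic acid around germ cells, and for the repression of pluripotency genes in germ cells.

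RNA was measured in whole mouse testes at E14.5, in 6 control pools (genotype Nr2f2 f/f) and 6 cKO pools (genotype Wt1 CreER x Nr2f2 f/f), each pool holding 3 testes. The Cre recombinase is active only after tamoxifen, which was injected into the pregnant dams on 2 successive days before collection, and it is expressed from Wt1, a gene of Sertoli cells and of interstitial progenitors. Deletion was incomplete, the floxed allele carries a LacZ reporter that is switched on by recombination, and nothing states whether the pools came from separate litters, so the p-values measure the spread between these pools. Expression of the targeted gene Nr2f2 averaged 175 ± 8.87 CPM in controls and 75.9 ± 24.5 CPM in cKO pools (mean ± SD over 6 pools), where CPM are counts scaled to the size of each library with TMM factors, and CPM values with ± below are of this form. Total counts ran from 7044531 to 59404778 per library. Xist, an RNA of XX cells, exceeded 100 CPM in 1 control pool (replicate 1) and 3 cKO pools (replicates 3, 5 and 6) and was at 5.15 to 7.68 CPM elsewhere, so main results are also given for the 8 other libraries (5 control, 3 cKO). Defining markers of Sertoli cells (Sox9, Amh), fetal Leydig cells (Cyp11a1, Cyp17a1), interstitial cells (Pdgfra, Tcf21) and germ cells (Ddx4, Dazl) were detected in every library.

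Nr1h5, Vdr, Pgr and Nr4a3 differed between control and cKO testes, and the 250 bases before their annotated transcription start are shown because the results turn on these genes. The sequences are the RefSeq entries on GRCm38.p6, written on the strand of the gene: Nr1h5 from chr3:102964134-102964383 (minus strand), Vdr from chr15:97908297-97908546 (minus strand), Pgr from chr9:8899583-8899832 (plus strand) and Nr4a3 from chr4:48045055-48045304 (plus strand). Capitals mark GGGCGG, the core of a GC box, and TGACGT, part of the cAMP response element, on either strand.
Nr1h5: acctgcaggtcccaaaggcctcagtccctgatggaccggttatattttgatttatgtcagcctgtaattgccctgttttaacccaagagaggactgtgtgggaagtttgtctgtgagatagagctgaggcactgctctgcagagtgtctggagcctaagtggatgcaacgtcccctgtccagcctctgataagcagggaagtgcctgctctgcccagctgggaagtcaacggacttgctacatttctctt
Vdr: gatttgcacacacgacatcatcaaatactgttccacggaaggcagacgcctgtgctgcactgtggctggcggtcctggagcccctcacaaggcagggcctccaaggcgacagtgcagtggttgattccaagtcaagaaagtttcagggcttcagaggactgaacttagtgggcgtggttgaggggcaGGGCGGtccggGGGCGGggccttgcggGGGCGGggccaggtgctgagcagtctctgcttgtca
Pgr: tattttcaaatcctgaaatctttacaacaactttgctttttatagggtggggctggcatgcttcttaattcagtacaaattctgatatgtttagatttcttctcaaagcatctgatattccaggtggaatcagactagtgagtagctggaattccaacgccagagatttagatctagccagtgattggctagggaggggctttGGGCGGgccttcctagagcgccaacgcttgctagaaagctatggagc
Nr4a3: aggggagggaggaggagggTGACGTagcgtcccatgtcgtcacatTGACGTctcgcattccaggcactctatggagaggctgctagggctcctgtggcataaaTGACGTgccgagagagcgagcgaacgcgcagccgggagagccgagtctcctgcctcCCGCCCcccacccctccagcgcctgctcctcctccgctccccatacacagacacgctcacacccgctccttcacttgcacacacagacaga

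The Vdr sequence held 3 GC boxes within its last 63 bases, and the Nr4a3 sequence held 3 copies of TGACGT and 1 GC box on the opposite strand. The Pgr sequence held 1 GC box, and the Nr1h5 sequence held neither motif. Among all 32851 windows of this length, 32.7% held GGGCGG and 6.47% held TGACGT, against 43.3% and 5% of the 60 windows of the receptor genes, which covered 40 of the 43 genes. The median GC content was 52.4% over all windows and 58.4% over those of the receptor genes, and its part in these shares was not tested. These motifs were chosen after the sequences had been read. The nuclear receptor element AGGTCA, searched on both strands, was in none of the 4 sequences, in 14% of all windows and in 18.3% of receptor gene windows (Nr0b1, Nr1d2, Nr1h4, Nr5a2, Nr6a1, Pparg, Rarg, Rxra, Rxrg and Thrb). The 7-letter element TAGGTCA was in 2.23% of all windows, and direct repeats of AGGTCA with a spacing of 1 or 4 bases were in 0.0335% and 0.0152%, and none of these was in a receptor gene window. The E-box CACGTG, bound by clock factors, was in 6.02% of all windows and in 8.33% of receptor gene windows (Esr2, Nr0b2, Nr1i3, Rara and Thrb). Thra, Hnf4g and Nr3c1 had no entry among the promoter windows used and were not searched.

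In control testes the superfamily covered a wide range of expression, from the abundant Thra and Nr1h2 to Hnf4g at a few reads per library. Levels of different genes were compared as CPM per kb of exon, which sets genes of different length on 1 scale. Thra, the thyroid hormone receptor alpha, was the highest at 50.3 ± 3.63 CPM per kb (SD, n = 6 pools), followed by Nr1h2 (liver X receptor beta) at 28.5, Rxrb at 24.0, Rxra at 20.4, Nr1d2 at 20.3, Nr2c2 at 15.7, Rara at 14.7 and Nr3c1, the glucocorticoid receptor, at 10.8. The order of neighbouring genes was mostly within the spread of the pools: of 42 neighbouring pairs in the order, only 4 had control ranges that did not overlap, namely Thra above Nr1h2, Nr1d2 above Nr2c2, Rarg above Nr4a1 and Nr4a2 above Thrb. Summed over all 43 genes, the level was 1011 ± 60.6 CPM in controls and 1009 ± 10.5 CPM in cKO pools. Nr1h5 moved from rank 38 to rank 24 in this order between control and cKO testes, Vdr from rank 15 to rank 23, and Pgr from rank 28 to rank 36. Nr4a3 stayed at rank 35. Genes that did not pass the test given below also moved, such as Pparg from rank 34 to 28 and Nr6a1 from rank 16 to 12.

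**Figure D1:**
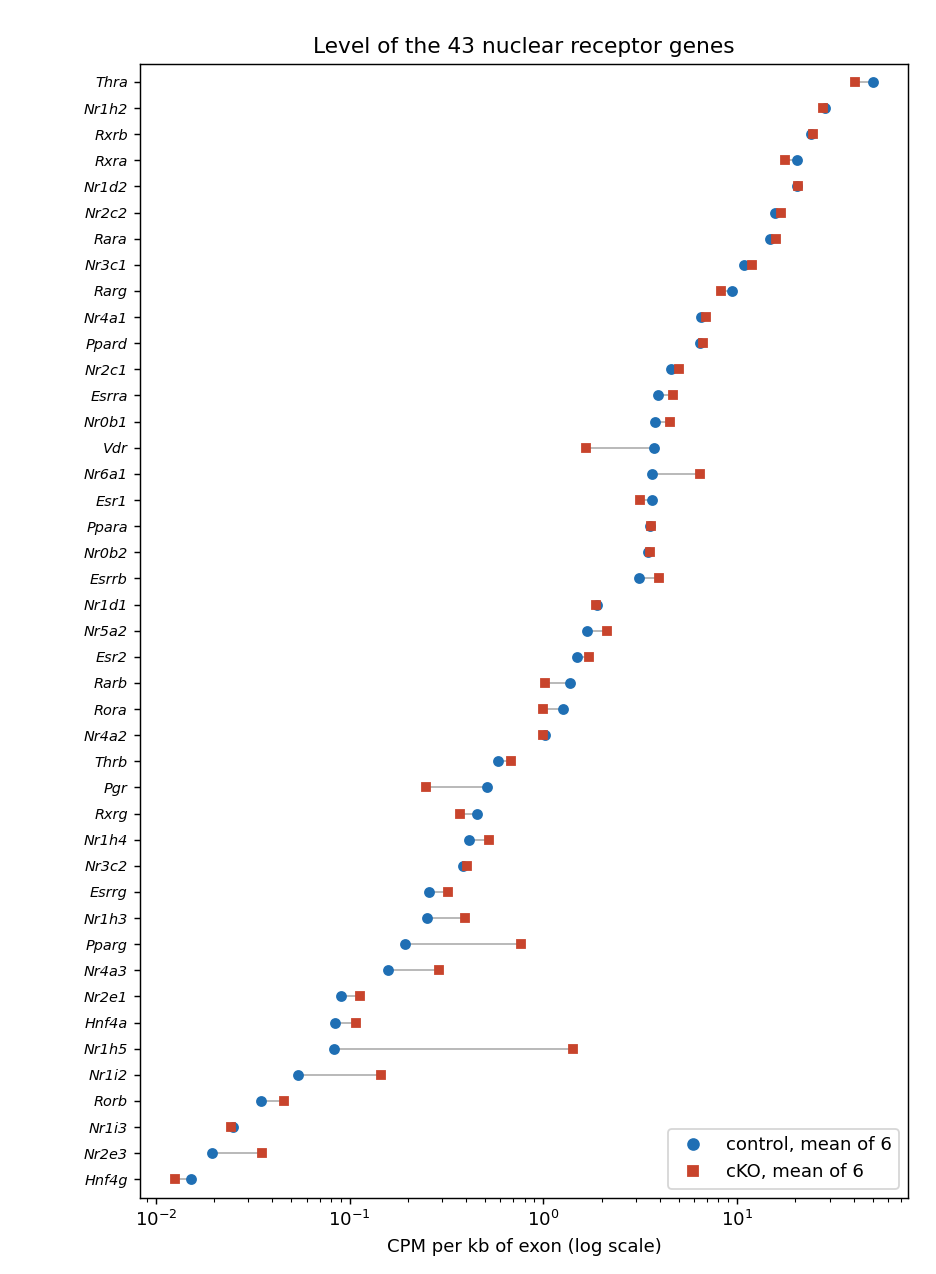
Mean level of each of the 43 nuclear receptor genes in CPM per kb of exon (log axis) in control (blue circles) and cKO (red squares) testes, n = 6 pools each, ordered by the control level. Thra stands at the top with 50.3 in control testes, and the widest gap between the groups is at Nr1h5, from 0.0829 to 1.43.

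Of the 43 genes, 37 passed the filter on low counts and were tested by edgeR's quasi-likelihood test with adjustment over all 15572 genes tested. Nr1h5 and Nr4a3 rose and Vdr and Pgr fell in cKO testes at an adjusted p under 0.05, and 33 did not pass. Over all genes 3.28% rose and 4.85% fell, so 2 of 37 in each direction is close to that background. The same shares are the background for the counts of pathway and marker genes given below. In Nr1h5, Vdr and Pgr the 6 cKO pools did not overlap the 6 control pools, which held for 5.52% of all genes tested. Of the 33 genes that did not pass, 29 had log2 fold changes within 0.5 of no change. The log2 fold change of cKO relative to control testes was positive for 24 and negative for 13 of the 37 genes, with a median of 0.10 against 0.00 over all genes, and of 0.12 with the 8 low-Xist libraries alone. The median size of the change, regardless of sign, was 0.22, against 0.15 over all genes. With DESeq2 3 receptor genes rose, Nr6a1 in addition, and 3 fell, Thra in addition, against 5.28% and 6.27% of all genes. In the 8 libraries with low Xist the same 4 genes passed in the same direction as in all 12, with 37 receptor genes tested, Rorb in place of Pparg, against 3.68% of all genes higher and 3.39% lower. Because these are whole testes, fewer cells of a type and less RNA per cell cannot be told apart.

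**Figure D2:**
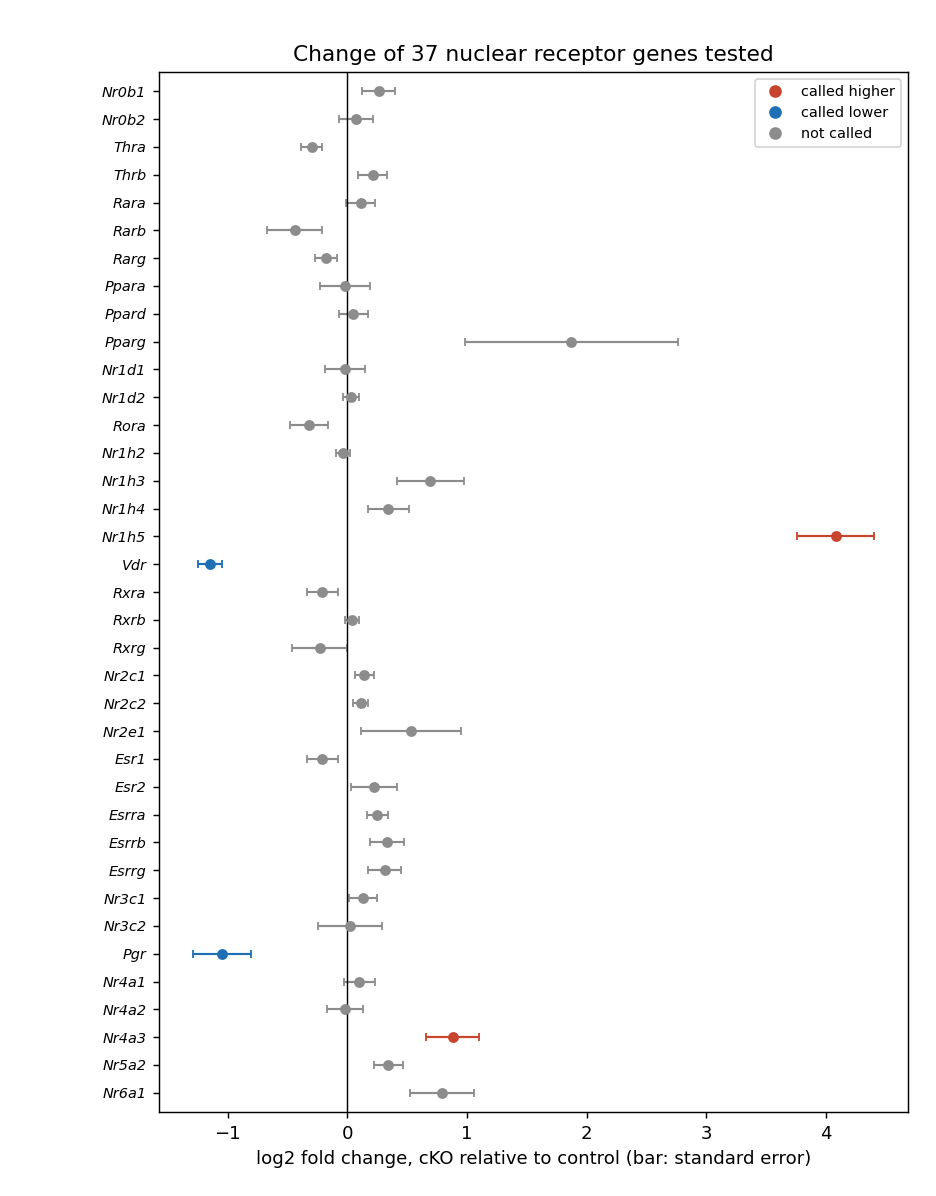
Log2 fold change of the 37 tested nuclear receptor genes, cKO relative to control testes, with the standard error as bar, from edgeR (n = 6 pools each). Red and blue points are genes that passed the adjusted p of 0.05, and Nr1h5 at 4.08, Vdr at -1.15, Pgr at -1.05 and Nr4a3 at 0.88 are the 4 that did.

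Vdr, the receptor of active vitamin D, had the smallest standard error of the 4 changes. The gene (Entrez Gene 22337, chr15:97854427-97908296 of mm10, minus strand) was at 16.3, 14.48, 17.4, 14.8, 16.8 and 17.6 CPM in control replicates 1 to 6, with a median of 16.5 CPM. In cKO replicates 1 to 6 it was at 7.26, 8.4, 6.2, 6.82, 6.78 and 8.19 CPM, with a median of 7.04 CPM. The highest cKO pool was therefore far below the lowest control pool. The means were 16.2 ± 1.31 and 7.27 ± 0.859 CPM, and the log2 fold change was -1.15 ± 0.10 (SE from the fit; adjusted p = 1.25e-05 by edgeR). Leaving out each library in turn gave -1.19 to -1.11, and the 8 libraries with low Xist gave -1.11 (edgeR adjusted p = 0.000462). Of 6 genes listed as vitamin D responsive, 2 met the filter on low counts and were tested, and neither passed. These were Spp1, which encodes osteopontin (log2 fold change 0.28, edgeR adjusted p = 0.252), and Trpv6, a calcium channel (-0.10, edgeR adjusted p = 0.853), named after their values were seen. Cyp24a1, the enzyme that inactivates vitamin D, had 12 counts in the 12 libraries together. Calb1, also named after its values were seen, had 1501 counts but did not meet the filter. It was uneven between pools, at 4.74 ± 11.2 CPM in control and 2.42 ± 2.79 CPM in cKO pools.

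Pgr, the progesterone receptor, was lower in every cKO pool, with a wider spread. The gene (Entrez Gene 18667, chr9:8899833-8968611, plus strand) was at 4.71, 2.56, 2.67, 2.82, 4.67 and 3.61 CPM in control replicates 1 to 6, with a median of 3.22 CPM. In cKO replicates 1 to 6 it was at 1.05, 2.31, 1.49, 1.19, 2.04 and 2.23 CPM, with a median of 1.76 CPM. The groups were separated by a narrow gap, with control replicates 2 to 4 the nearest to the cKO pools. The means were 3.51 ± 0.987 and 1.72 ± 0.548 CPM, and the log2 fold change was -1.05 ± 0.24 (SE from the fit; adjusted p = 0.0169 by edgeR). It stayed past the threshold in all 12 fits that left out 1 library (-1.17 to -0.93) and in the 8 libraries with low Xist (-1.14, edgeR adjusted p = 0.0427). The contractile cell markers fell with both genes: 5 of 5 passed (4 in the 8 libraries with low Xist), and their summed level was 563 to 692 CPM in control and 335 to 514 CPM in cKO pools. Interstitial progenitor markers summed to 1093 to 1353 CPM in control and 665 to 1202 CPM in cKO pools, with 4 cKO pools below every control. Among these were the high-Xist cKO replicates 3, 5 and 6, at 950, 665 and 736 CPM. The list did not fall as a whole: 2 of 6 passed as lower and 3 had a positive log2 fold change. Its median was -0.19 (log2), and 0.01 in the 8 libraries with low Xist, where 2 were lower. The part of these cells in the fall of Vdr and Pgr was not tested.

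Nr1h5, a farnesoid X receptor paralog that binds lanosterol in rodents, was near the detection limit in control testes. The gene (Entrez Gene 381463, chr3:102939658-102964133, minus strand) had 2 to 13 counts per control library and 32 to 229 counts per cKO library. This was 0.189, 0.122, 0.327, 0.33, 0.153 and 0.289 CPM in control replicates 1 to 6 (median 0.239), and 4.26, 2.78, 2.53, 6.79, 4.34 and 3.62 CPM in cKO replicates 1 to 6 (median 3.94). The lowest cKO pool lay well above the highest control pool. The means were 0.235 ± 0.0915 and 4.05 ± 1.53 CPM, and the log2 fold change was 4.08 ± 0.32 (SE from the fit; adjusted p = 7.79e-06 by edgeR), and 3.85 to 4.26 when each library was left out. With the 8 low-Xist libraries alone it was 4.20 (edgeR adjusted p = 0.000143). All 6 control pools lay under the 0.382 CPM that the filter asked of 6 libraries, so the gene entered the test only through the cKO pools and its place among the tested genes is no separate evidence. It was the only receptor gene for which this held. Its paralog Nr1h4, the bile acid receptor, was at 0.953 ± 0.133 and 1.21 ± 0.224 CPM (log2 fold change 0.34, edgeR adjusted p = 0.227). Of 9 bile acid receptor targets 2 could be tested, and neither passed.

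Hepatocyte markers were uneven between libraries. Their summed level was 133 to 245 CPM in cKO replicates 6 and 4, against 8.41 to 13.6 CPM in the other 4 cKO pools and 6.1 to 52.9 CPM in controls. Nr1h5 was highest, at 6.79 CPM, in cKO replicate 4, which had the highest hepatocyte sum, and was at 2.53 to 4.34 CPM in the 4 cKO pools with low sums and at 3.62 CPM in cKO replicate 6. Hnf4a, a liver and gut receptor that did not pass the filter on low counts, was highest in cKO replicate 4 at 1.36 CPM, control replicate 5 at 0.918 CPM and cKO replicate 6 at 0.737 CPM, the 3 libraries with the highest hepatocyte sums. Adrenal cortex markers summed to 13 to 24.2 CPM in control and 20.1 to 24.1 CPM in cKO pools, with 1 of 4 tested genes higher. Macrophage markers summed to 42.9 to 63 CPM in control and 64 to 81 CPM in cKO pools, with all 6 cKO pools above every control and 3 of 10 genes higher. Mesonephric epithelium markers summed to 46.7 to 88.1 CPM in control and 45.7 to 72.9 CPM in cKO pools, with 2 of 6 genes higher. In the 8 libraries with low Xist 0 of these were higher and 1 was lower. The part of hepatocytes, adrenal cells, macrophages and mesonephric epithelium in the result for Nr1h5 was not tested.

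Nr4a3 belongs to the NR4A orphan receptors, which are encoded by immediate early genes and act without a ligand. The gene (Entrez Gene 18124, chr4:48045305-48086446, plus strand) was at 1.24, 0.854, 0.779, 1.13, 0.536 and 0.868 CPM in control replicates 1 to 6, with a median of 0.861 CPM. In cKO replicates 1 to 6 it was at 1.95, 1.65, 1.98, 1.99, 1.09 and 1.32 CPM, with a median of 1.8 CPM. In 5 of 6 cKO pools the value was above every control pool, and cKO replicate 5 was the exception. The means were 0.902 ± 0.254 and 1.66 ± 0.384 CPM, and the log2 fold change was 0.88 ± 0.22 (SE from the fit; adjusted p = 0.0233 by edgeR), from 6 to 79 counts per library. The call was lost without control replicate 2 or 3 or without cKO replicate 1, 3 or 4 (edgeR adjusted p = 0.0543 to 0.0588), and it held in the 8 libraries with low Xist (1.16, edgeR adjusted p = 0.0105). The related Nr4a1 (17.4 ± 3.01 and 18.6 ± 3.00 CPM) and Nr4a2 (3.83 ± 0.858 and 3.76 ± 0.431 CPM) had log2 fold changes of 0.10 and -0.02 (edgeR adjusted p = 0.678 and 0.962). The part of the macrophage markers given above in the result for Nr4a3 was not tested.

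**Figure D3:**
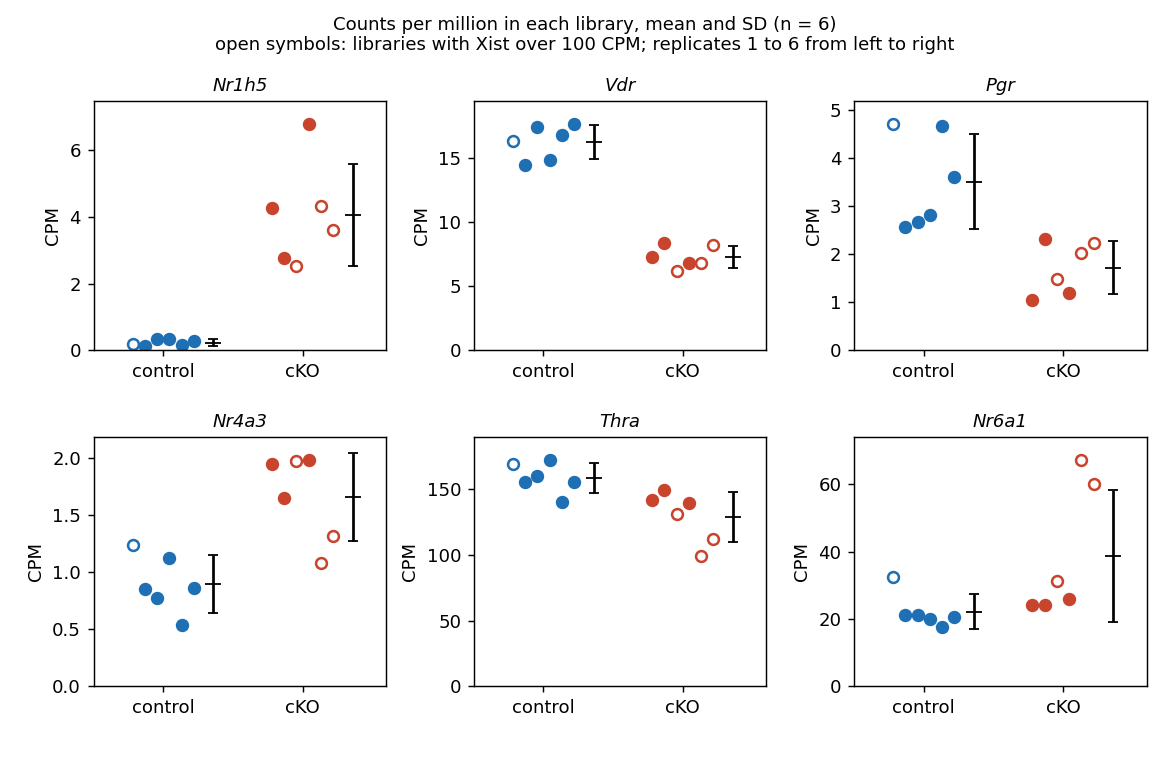
CPM of 6 nuclear receptor genes in each control (blue) and cKO (red) library, with mean and SD (n = 6 pools) in black; open symbols are the libraries with Xist over 100 CPM. Nr1h5, Vdr and Pgr do not overlap between the groups, Nr4a3 overlaps by cKO replicate 5, and Nr6a1 is highest in cKO replicates 5 and 6 at 67.2 and 60.1 CPM.

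Among the thyroid hormone and retinoid receptors no gene passed the edgeR test. Thra (Entrez Gene 21833, chr11:98741785-98769006, plus strand) was at 169, 155, 160, 172, 140 and 155 CPM in control replicates 1 to 6 and at 141, 149, 131, 139, 99.3 and 112 CPM in cKO replicates 1 to 6. In 4 of 6 cKO pools it was below every control, and cKO replicates 5 and 6 were the lowest. From 159 ± 11.5 and 129 ± 19.2 CPM, its log2 fold change of -0.30 (standard error 0.09) had an adjusted p of 0.0663 from edgeR and of 0.0291 from DESeq2, and it was -0.12 in the 8 libraries with low Xist (edgeR adjusted p = 0.312). Without cKO replicate 2 it passed in edgeR at -0.35 (edgeR adjusted p = 0.0427). Thrb, the other thyroid hormone receptor, was at 3.95 ± 0.633 and 4.59 ± 0.311 CPM (log2 fold change 0.21, edgeR adjusted p = 0.296). Among 7 tested thyroid hormone responsive genes, Hr fell (-0.94, edgeR adjusted p = 0.0152) and Bcl3 rose (0.61, edgeR adjusted p = 0.0229). Both passed in the 8 libraries with low Xist as well.

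The retinoic acid receptors mediate the transcriptional response to retinoic acid. Rara was at 62.8 ± 10.7 and 67.8 ± 8.25 CPM in control and cKO testes, Rarb at 4.65 ± 1.64 and 3.46 ± 1.01 CPM, and Rarg at 31.8 ± 2.97 and 28 ± 2.97 CPM. Their log2 fold changes were 0.11, -0.44 and -0.18 (edgeR adjusted p = 0.585, 0.247 and 0.207). Of the retinoid X receptors, their partners, Rxra was at 104 ± 19.2 and 90 ± 12 CPM, Rxrb at 69.3 ± 4.21 and 71.1 ± 3.18 CPM, and Rxrg at 1.04 ± 0.294 and 0.857 ± 0.239 CPM. Their log2 fold changes were -0.21, 0.04 and -0.23 (edgeR adjusted p = 0.317, 0.711 and 0.536). For Rxrb, 2 standard errors either side of the estimate ran from -0.08 to 0.15. Of 7 tested genes listed as retinoic acid targets 2 fell and 0 rose, with a median log2 fold change of -0.30: Tgm2, a transglutaminase, from 232 ± 25.2 to 158 ± 17.7 CPM (edgeR adjusted p = 0.00183), and Stra6, a retinol transporter, from 18.6 ± 2.76 to 12.4 ± 1.14 CPM (edgeR adjusted p = 0.00317). The summed level of the list was 422 to 548 CPM in control and 387 to 447 CPM in cKO pools, with 3 cKO pools below every control. In the 8 libraries with low Xist 4 of the list fell, against 3.39% of all genes. The largest change of the list was upward and did not pass: Stra8, a gene of meiotic entry that was named after its values were seen, had 2.45 (edgeR adjusted p = 0.0997), with 87.7 and 73.6 CPM in cKO replicates 5 and 6 against 2.58 to 10.2 CPM in the other libraries, and -0.11 in the 8 libraries with low Xist.

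Among the receptors of lipids, the liver X receptors sense oxysterols. Nr1h2 was at 57.1 ± 3.68 and 55.6 ± 2.8 CPM and Nr1h3 at 0.541 ± 0.122 and 0.847 ± 0.366 CPM. Their log2 fold changes were -0.04 and 0.69 (edgeR adjusted p = 0.708 and 0.146). Nr1h3, with 4 to 21 counts per control library, was highest in the high-Xist cKO replicates 5 and 6 at 1.22 and 1.37 CPM. Its log2 fold change was 0.29 in the 8 libraries with low Xist (edgeR adjusted p = 0.493). Of 13 tested liver X receptor targets, the lipoprotein lipase Lpl (0.89, edgeR adjusted p = 0.018) and the cholesterol exporter Abcg1 (0.43, edgeR adjusted p = 0.0236) rose, and 2 rose and 1 fell in the 8 libraries with low Xist. Ppara and Ppard, which govern fatty acid oxidation, were at 12.5 ± 3.76 and 12.7 ± 3.81 CPM and at 21 ± 4.22 and 21.9 ± 1.74 CPM (log2 fold changes -0.02 and 0.05, edgeR adjusted p = 0.969 and 0.814). Of 18 tested PPAR targets, the fatty acid transporter Cd36 fell from 11.6 ± 3.2 to 6.02 ± 0.883 CPM (edgeR adjusted p = 0.003), with all 6 cKO pools below every control. The circadian receptors Nr1d1 and Nr1d2 repress, and Rora activates, through the same DNA elements of clock genes. Nr1d1 was at 5.14 ± 1.17 and 5.11 ± 1.03 CPM, Nr1d2 at 94.9 ± 10.2 and 96.6 ± 4.36 CPM, and Rora at 14.2 ± 3.49 and 11.3 ± 1.98 CPM. Their log2 fold changes were -0.02, 0.03 and -0.32 (edgeR adjusted p = 0.967, 0.840 and 0.220), and 0 of 18 tested clock genes passed.

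Among the steroid receptors, the oestrogen receptors Esr1 and Esr2 were at 28.1 ± 4.43 and 24.3 ± 4.36 CPM and at 5.04 ± 0.642 and 5.78 ± 1.84 CPM (log2 fold changes -0.21 and 0.22, edgeR adjusted p = 0.317 and 0.489). Esr2 was split among the cKO pools, with 4 above every control and 2 below, the latter being cKO replicates 5 and 6 at 3.12 and 4.05 CPM, both with high Xist. With the 8 low-Xist libraries alone its log2 value was 0.51 (edgeR adjusted p = 0.0606). Among 7 tested oestrogen and progesterone responsive genes, Igfbp4 (-0.35, edgeR adjusted p = 0.00749) and Xbp1 (-0.27, edgeR adjusted p = 0.012) fell and Greb1 rose (0.83, edgeR adjusted p = 0.0241). In the 8 libraries with low Xist Greb1 passed and the other two did not (edgeR adjusted p = 0.0929 for Igfbp4 and 0.0647 for Xbp1). The glucocorticoid receptor Nr3c1 (70.9 ± 10.7 and 77.5 ± 14.3 CPM) and the mineralocorticoid receptor Nr3c2 (2.37 ± 1.23 and 2.5 ± 0.579 CPM) had log2 fold changes of 0.13 and 0.02 (edgeR adjusted p = 0.525 and 0.970), and 0 of 14 tested glucocorticoid targets passed. The oestrogen-related receptors Esrra, Esrrb and Esrrg are orphans known for the control of mitochondrial genes and, for Esrrb, of pluripotency. Esrra was at 8.79 ± 0.998 and 10.5 ± 0.482 CPM, Esrrb at 17.6 ± 4.45 and 22.3 ± 2.27 CPM, and Esrrg at 1.46 ± 0.174 and 1.83 ± 0.149 CPM. Their log2 fold changes were 0.25, 0.33 and 0.31 (edgeR adjusted p = 0.114, 0.168 and 0.174), and 0 of 13 tested targets passed. Esrra passed without control replicate 1 (0.30, edgeR adjusted p = 0.0244) and Esrrb without control replicate 3 (0.47, edgeR adjusted p = 0.0251).

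Nr6a1, the germ cell nuclear factor that silences pluripotency genes, and Pparg, the regulator of fat cell formation, had the largest log2 fold changes among the genes that did not pass. Nr6a1 (Entrez Gene 14536, chr2:38723374-38926461, minus strand) was at 32.4, 21.1, 21.1, 20, 17.6 and 20.5 CPM in control replicates 1 to 6 and at 24.2, 24.1, 31.3, 25.9, 67.2 and 60.1 CPM in cKO replicates 1 to 6. The 4 highest values were in the 4 libraries with Xist over 100 CPM, control replicate 1 among them, and cKO replicates 5 and 6 were above every control. The means were 22.1 ± 5.22 and 38.8 ± 19.6 CPM, and the log2 fold change was 0.79 (standard error 0.27) with an adjusted p of 0.087 from edgeR and 0.0228 from DESeq2, and it was 0.30 in the 8 libraries with low Xist (edgeR adjusted p = 0.0576). Without control replicate 1 it passed in edgeR at 0.93 (edgeR adjusted p = 0.0303). Pparg had means of 0.461 ± 0.451 and 1.82 ± 2.29 CPM. It was at 5.02 and 4.52 CPM in cKO replicates 5 and 6 and at 0.132 to 0.546 CPM in the other 4 cKO pools, and its log2 fold change of 1.87 had a standard error of 0.89 (edgeR adjusted p = 0.203), with 1.01 to 2.93 when each library was left out. The same 2 libraries had meiosis marker sums of 813 and 814 CPM, against 195 to 392 CPM in controls and 236 to 403 CPM in the other cKO pools, while Xist-high control replicate 1 and cKO replicate 3 had 392 and 403 CPM. Ovarian somatic markers summed to 315 CPM in control replicate 1 and to 141, 207 and 193 CPM in cKO replicates 3, 5 and 6, against 66.7 to 92.8 CPM in the 8 other libraries. In all 12 libraries 1 of 6 ovarian markers passed, lower in cKO testes, whereas with the 8 low-Xist libraries alone 3 were higher and 1 lower, and none was at 0 in every library. The part of the meiosis and ovarian markers in the values of Nr6a1 and Pparg was not tested. In the 8 libraries with low Xist the median over the meiosis list was -0.03 (log2), against 0.69 in all 12.

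**Figure D4:**
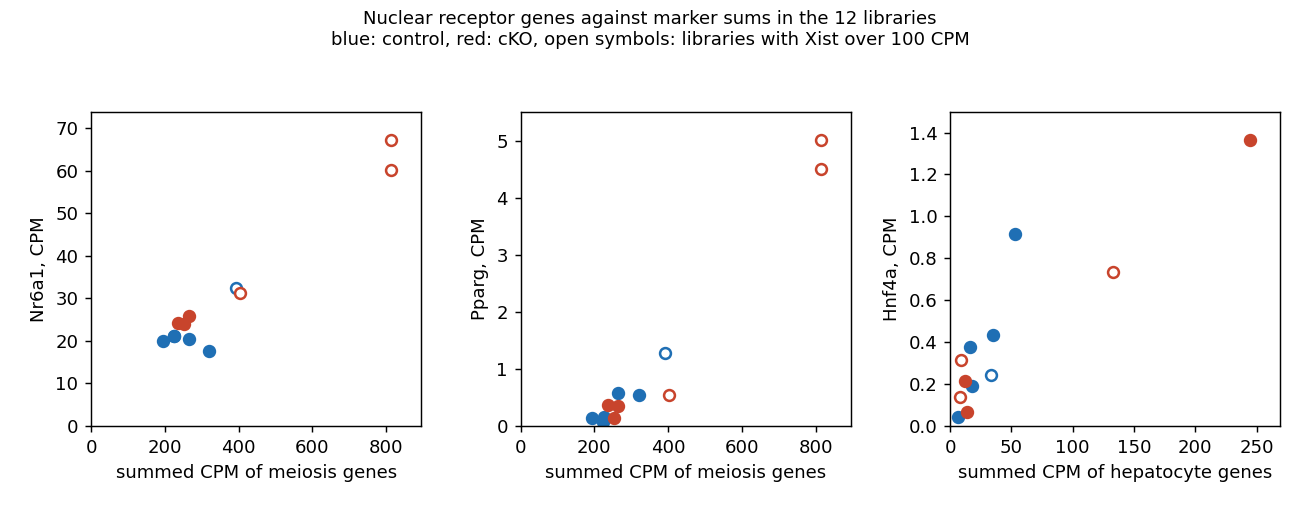
CPM of Nr6a1 and Pparg against the summed CPM of 8 meiosis genes, and of Hnf4a against that of 4 hepatocyte genes, 1 point per library (blue control, red cKO, open with Xist over 100 CPM). The top right points of the Nr6a1 and Pparg panels are cKO replicates 5 and 6, with meiosis sums of 813 and 814 CPM, and the rightmost Hnf4a point is cKO replicate 4.

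The other tested orphan receptors did not pass. Nr5a2, which is close to the steroidogenic regulator Nr5a1, was at 9.36 ± 1.59 and 11.9 ± 1.41 CPM, with 4 of 6 cKO pools above every control (log2 fold change 0.34, edgeR adjusted p = 0.103). It passed without control replicate 1 (0.38, edgeR adjusted p = 0.0463). Nr0b1, which lacks the usual DNA-binding domain and represses Nr5a1, was at 6.77 ± 0.697 and 8.18 ± 1.87 CPM. Nr0b2, a related repressor, was at 3.91 ± 0.81 and 4.03 ± 0.263 CPM. Their log2 fold changes were 0.26 and 0.07 (edgeR adjusted p = 0.271 and 0.772). Nr0b1 was highest in the high-Xist cKO replicates 3, 5 and 6, at 8.24, 11.1 and 9.43 CPM. Nr5a1 itself had a log2 fold change of -0.31 and did not pass (edgeR adjusted p = 0.0517). In the 8 libraries with low Xist Nr0b1 was at 0.04 (edgeR adjusted p = 0.873) and Nr5a1 at -0.22 (edgeR adjusted p = 0.223). Of 12 tested steroid synthesis genes 4 fell, Fdx1, Cyp17a1, Cyp11a1 and Hsd3b1 (which has close paralogs that can share its reads), and 0 rose. Of 6 fetal Leydig cell markers 4 fell, and fetal Leydig cell markers summed to 1849 to 3140 CPM in control and 1035 to 1995 CPM in cKO pools. The testicular receptors Nr2c1 and Nr2c2, which bind direct repeats of AGGTCA, were at 21 ± 2.23 and 23.1 ± 0.977 CPM and at 127 ± 8.3 and 137 ± 4.27 CPM, and Nr2e1, a receptor of neural stem cells, at 0.312 ± 0.153 and 0.389 ± 0.194 CPM (log2 fold changes 0.14, 0.11 and 0.53, edgeR adjusted p = 0.287, 0.247 and 0.452). Among 28 coregulators, the shared cofactors of nuclear receptors, 1 rose, Med14 (0.18, edgeR adjusted p = 0.0442), and the median over the list was 0.11. Med14 did not pass in the 8 libraries with low Xist (edgeR adjusted p = 0.144), whereas Nrip1 (0.59, edgeR adjusted p = 0.00755) and Bcl11b (0.45, edgeR adjusted p = 0.0487), named after their values were seen, rose.

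The genes that did not pass the filter on low counts were Hnf4a, Hnf4g, Nr1i2, Nr1i3, Nr2e3 and Rorb. Hnf4g had 0 to 3 counts per library and Nr1i3, the constitutive androstane receptor, 0 to 7. Nr2e3, a photoreceptor gene, had 0 to 11 and Rorb, a receptor of retina and brain, 1 to 25. Nr1i2, the xenobiotic sensor, had 0 to 42 and Hnf4a 1 to 46. With no filter on low counts none of the 6 passed: the log2 estimate for Nr1i2 was 1.16 (SE 0.60, edgeR adjusted p = 0.29) and for Rorb 0.56 (SE 0.36, edgeR adjusted p = 0.398), and the adjusted p of the other 4 ran from 0.535 to 0.865. In the 8 libraries with low Xist, where Rorb passed the filter, its adjusted p from edgeR was 0.155.

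The receptor genes lie on 18 chromosomes, with a few near each other. Thra and Nr1d1 overlap by 1075 bases on opposite strands of chromosome 11, 162318 bases from Rara at the Nr1d1 side, and counting used the strand. On chromosome 14 Thrb lies 578628 bases from Rarb and 165967 bases from Nr1d2. None of these neighbours passed the edgeR test, and Thra and Nr1d1 had log2 fold changes of -0.30 and -0.02.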

How the data were processed

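RNA from 6 control and 6 cKO pools of 3 E14.5 testes was sequenced by a strand-specific mRNA protocol. The authors trimmed read pairs (Trim Galore 0.6.7), aligned them to mm10 (STAR 2.5), counted them by strand on RefSeq Curated models (featureCounts, Subread 1.5.0-p1) and deposited raw counts for 24470 genes. Total counts were 7044531 to 59404778 per library, and no column was left out. Here edgeR 4.0.16 was used under R 4.3.3: TMM factors scaled the libraries, filterByExpr (minimum count 10, minimum total 15) kept 15572 genes, and groups given by the genotype labels were compared by glmQLFit and glmQLFTest without a covariate. Adjustment was by Benjamini-Hochberg over all genes tested, with a threshold of 0.05. Standard errors were derived from the log2 fold change and the square root of its F statistic. Alternatives were other scalings and filters, DESeq2 1.42.0, limma-voom (limma 3.58.1), a replicate block and leaving out each library. The fit of 8 libraries with Xist under 100 CPM was added after seeing the data.

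The members and lists were chosen with earlier results of these data known. Every receptor gene was named. Those called by edgeR or DESeq2, or without overlap at a mean of at least 1 CPM, were given per library, the other tested genes as means, and untested genes as count ranges. From each pathway list up to 4 genes called by edgeR were named, by smallest adjusted p, and part of these lists is not reported here. Exon lengths were taken from GENCODE and promoters from RefSeq, both on the build of the counts. On simulated data of 15572 genes, edgeR recovered 67 of 86 genes changed by 1 log2 unit and 114 of 114 changed by 2, with 13 false calls among 194. The simulated counts were drawn for each gene independently, without differences between libraries such as those in Xist. The figures therefore describe a simpler setting than these data.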

Additional observations from a re-analysis of the deposited data

Results flagged for a closer look

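Single pools stood apart from the other 5 of their group, by the gap to the nearest pool relative to the range on the log2 CPM scale, in 5 of 74 groups of 6 pools examined, where chance gives about 3.7 at 1 in 20. Rxra, a shared partner of other nuclear receptors, was at 68.7 CPM in control replicate 5 against 102 to 123 CPM in the other controls. In the same pool Nr4a1, an immediate early gene, was at 11.7 CPM against 16.6 to 20.3 CPM. Nr3c2, the mineralocorticoid receptor, was at 4.84 CPM in control replicate 1 against 1.59 to 2.17 CPM, and Nr6a1 was at 32.4 CPM in that pool against 17.6 to 21.1 CPM. Nr1d2, a circadian repressor, was at 105 CPM in cKO replicate 2 against 92.5 to 96.4 CPM in the other cKO pools.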

How the results depend on the processing

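The calls of Nr1h5, Vdr and Pgr kept their direction and passed under all 22 alternatives, which include the 12 fits that left out 1 library and the fit of the 8 low-Xist libraries alone. The number of receptor genes called higher was 2, and 1 to 5 when each library was left out: 5 without control replicate 1, and 1 when control replicate 2 or any of cKO replicates 1, 3 and 4 was left out. It was 6 by limma-voom with sample quality weights, which added Nr2c1, Esr2, Esrra and Nr5a2, where over all genes 3860 were called against 1266. The cause was not tested. The median log2 fold change of the tested receptor genes was 0.10, and 0.03 to 0.13 when each library was left out, with the lowest value without control replicate 5. Over all genes, DESeq2 called 1919, and edgeR called 3106 when control replicate 1 was left out and 816 when cKO replicate 4 was.

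Log2 fold changes near 0 changed sign in 9 genes, none of them called. With library totals only, Ppara, Nr1d1 and Nr4a2 were each at 0.01. By limma-voom Nr4a2 was at 0.01, and with sample quality weights Nr1d1 was at 0.09 and Nr1d2 at -0.02. With the 8 low-Xist libraries alone, chosen after seeing the data, Nr1d1 was at 0.26, Nr1h2 at 0.00496 and Nr3c1 at -0.06. When each library was left out, Nr0b2 ran from -0.01 to 0.16, Ppara from -0.14 to 0.13, Ppard from -0.02 to 0.13, Nr1d1 from -0.10 to 0.12, Nr1d2 from -0.02 to 0.07, Nr3c2 from -0.07 to 0.39 and Nr4a2 from -0.07 to 0.08. Counts limit Nr1h5, Nr4a3, Pparg and Nr2e1 and the 6 untested genes.

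Same-numbered control and cKO pools were not treated as pairs, and nothing states whether they shared a litter or batch. The correlations of their deviations were -0.334, 0.211, -0.248, 0.242, 0.0246 and 0.0117 for numbers 1 to 6. Only number 4 correlated best with its own number. Such correlations cannot show that pairing was absent. A replicate block moved the count over all genes from 1266 to 931. Under the block 2 receptor genes were called higher and 3 lower, and Thra passed at -0.31 (edgeR adjusted p = 0.0319).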
